A study of Homo sapiens with 6 samples.

Results

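The genes described here are the long noncoding RNA genes of 21NT breast cancer cells that carry a LINC symbol (long intergenic noncoding RNA) or a symbol that ends in -AS and a number (antisense to the gene named before the ending). They were chosen by their mean level, averaged across all 6 libraries, which had to reach 0.5 RPKM, a unit in which reads are divided by the length of the transcript and the size of the library. This rule gave 319 of the 1177 LINC and antisense rows of the table, of which 111 of 504 were LINC genes and 208 of 673 were antisense genes. The whole table held 20824 genes, and 12805 reached the same mean. Because the mean was taken over all 6 libraries, a member can have entered through the line in which it was high, so counts over the members are given as a description. The last genes outside the limit were *PSMG3-AS1*, *LINC00240* and *DNAJC9-AS1* at means of 0.4946, 0.4965 and 0.4979 RPKM, and the first inside were *LINC00685*, *LINC00176* and *LINC01004* at 0.5002, 0.5016 and 0.5039 RPKM.

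The 21NT cell line mimics ductal carcinoma in situ, a breast cancer that has not invaded. Cells were stably transfected with the empty pcDNA3.1 vector (21NT + EV) or with the same vector carrying TBX3iso1 or TBX3iso2, the splice isoforms of the T-box transcription factor TBX3, and the G418-resistant clones of each transfection were pooled and kept in G418. Stranded mRNA libraries were sequenced in duplicate for each line, and nothing in the labels says that the duplicates came from separate cultures, so p-values measure only the spread between these libraries, which may be technical. The isoform comparisons with EV share the EV libraries. Depth was 43176600 to 54512400 alignments per library, at which 0.5 RPKM of a 1-kilobase transcript is 21.6 to 27.3 reads. *TBX3* itself, whose row counts both isoforms, was at 8.52 and 8.24 RPKM with EV, 13.1 and 11.4 RPKM with TBX3iso1 and 17.5 and 15.5 RPKM with TBX3iso2. Of 9 epithelial markers 8 were at 0.5 RPKM or more (summed level 2410 to 3180 RPKM per library). Of 6 fibroblast, 4 endothelial and 3 leukocyte markers with a row, 1 of each kind reached that level, namely *COL1A1* (line means 4.30, 7.41 and 7.06 RPKM with EV, TBX3iso1 and TBX3iso2), *PECAM1* (7.29, 1.15 and 1.29 RPKM) and *CD14* (10.1, 2.41 and 2.40 RPKM), and their part in the results below was not tested.

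Long noncoding RNAs are transcripts that are spliced and polyadenylated like mRNAs but are not known to be translated. They are usually present at lower levels and in fewer cell types than mRNAs, and individual ones are known to scaffold protein complexes, to bind microRNAs or to act on the transcription of a neighbouring gene. Antisense RNAs arise from the strand opposite a protein-coding gene, either head to head from a shared promoter region or across the body of the gene. T-box factors such as TBX3 bind a T-box element, whose core is AGGTGTGA, and TBX3 is known mainly as a repressor of transcription. Some genes first named as LINC or antisense genes were later found to encode small proteins.

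Positions are from GENCODE release 44 lifted to GRCh37, the build of the deposited values, in which 302 of the 319 members had a gene. The T-box core was searched on both strands in the window from 250 bases before to 50 bases after the start of each of these genes, on the GRCh37 sequence, and 300 windows could be read. It stood in 3 of the 300 member windows (1%) and in 867 of 55064 windows of all genes of the annotation (1.57%), whether tested here or not. That set was not matched to the members in level or in G and C content. The matches were at *MYLK-AS1*, *LRRC75A-AS1* and *CIRBP-AS1*, and the first and second are shown because *MYLK-AS1* was lower with both isoforms and *LRRC75A-AS1* was the most abundant member. *TBX2-AS1*, beside *TBX2*, the closest relative of *TBX3*, held the shorter core GGTGTGA, as did 9 member windows in all (3%) and 2363 windows of all genes (4.29%), counts that include the longer core. Sequences are written 5′ to 3′ on the strand of the member, and the capitals mark the core or its reverse complement.
*MYLK-AS1*, chr3:123304284-123304313, plus strand: ttgccctatctTCACACCTgaacactattg
*LRRC75A-AS1*, chr17:16342331-16342360, plus strand: tggcgcacataAGGTGTGAccttttcattc
*TBX2-AS1*, chr17:59488988-59489016, minus strand: agcccctgcacTCACACCctccatctccg
The core AGGTGTGA was in 0 of the 23 windows of members higher with TBX3iso1 and in 1 of the 101 windows of members lower with it. With TBX3iso2 these counts were 0 of 22 and 1 of 70. A match is a description of the letters and not a binding site, and no match says only that these letters were not in this window. The windows of antisense members were richer in G and C than those of LINC members, with medians of 64.7% and 53.7% and of 25 and 9 CG dinucleotides, against 52% and 6 for all genes of the annotation. By call, the windows of members lower, higher and not called with TBX3iso1 had medians of 62.7%, 62% and 63%, and with TBX3iso2 64.8%, 61.5% and 62.3%.

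Most members were scarce. The median member had a mean of 1.43 RPKM, against 7.66 RPKM for all genes tested. Only 23 members reached 10 RPKM, 95 lay between 2 and 10 RPKM, 93 between 1 and 2 RPKM and 108 between 0.5 and 1 RPKM. The summed level of the 319 members was 1170 and 1172 RPKM in the EV libraries, 1022 and 1099 RPKM with TBX3iso1 and 1111 and 1184 RPKM with TBX3iso2. The TBX3iso1 libraries were thus the lowest in sum, and the TBX3iso2 libraries lay on both sides of EV. Replicates of members were less alike than those of genes in general: duplicates differed on the log2 scale with an SD of 0.272, 0.304 and 0.320 for members in EV, TBX3iso1 and TBX3iso2, and 0.182, 0.242 and 0.273 for all genes tested.

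Of the 10 most abundant members, *LINC00152* rose with both isoforms, *LINC01444* rose with TBX3iso2 and the other 8 were not called against EV. *LRRC75A-AS1*, a host gene of small nucleolar RNAs that RefSeq now lists as SNHG29, was at 64.3 and 65.8 RPKM with EV, 66.5 and 79.0 RPKM with TBX3iso1 and 70.7 and 75.2 RPKM with TBX3iso2. It was followed by *LINC00998*, *FGD5-AS1*, *LINC00460*, *LINC00493*, *LINC01420*, *LINC01444*, *NCBP2-AS2*, *OIP5-AS1* and *LINC00152*. *LINC00152*, also called *CYTOR* and described as abundant in many carcinomas, was at 13.3 and 12.5 RPKM with EV, 21.9 and 27.5 RPKM with TBX3iso1 and 23.9 and 28.2 RPKM with TBX3iso2. All 4 TBX3 libraries lay above both EV libraries, with log2 fold changes of 0.93 ± 0.12 (SE, limma adjusted p = 0.000938) and 1.01 ± 0.12 (limma adjusted p = 0.000601). *LINC01444* passed the 1.5-fold threshold with TBX3iso2 (0.64 ± 0.11 on the log2 scale, limma adjusted p = 0.00249, and 0.53 without TBX3iso2 library 2), and its value with TBX3iso1 was 0.50. *LINC00460* had log2 fold changes of 0.40 and 0.55, below that threshold. *OIP5-AS1* stayed between 21.97 and 23.7 RPKM in all 6 libraries.

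Expression was compared on log2(RPKM + 0.1) with limma over all 12805 genes, and a gene was called at a Benjamini-Hochberg adjusted p below 0.05 with a change of more than 1.5-fold. With TBX3iso1, 23 members were higher (7.21%) and 107 were lower (33.5%), while among all genes tested 7.46% were higher and 14.1% were lower (21.5% in either direction). Over all levels, the share of members called higher was therefore near the background and the share called lower was above it. The median log2 fold change was -0.32 for the members and -0.05 for all genes. With TBX3iso2, 23 members were higher (7.21%) and 74 were lower (23.2%), against a background of 8.94% and 12.3% (21.2% in either direction), and the medians were -0.16 and -0.00. Between the isoforms, 22 members were higher with TBX3iso2 (6.9%) and 9 were lower (2.82%), against 3.47% and 2.82% of all genes (6.29% in either direction). The calls ran from 0.60 to 5.29 on the log2 scale for rises with TBX3iso1 and from -0.59 to -3.15 for falls, with medians of 1.14 and -0.95.

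**Figure D1:**
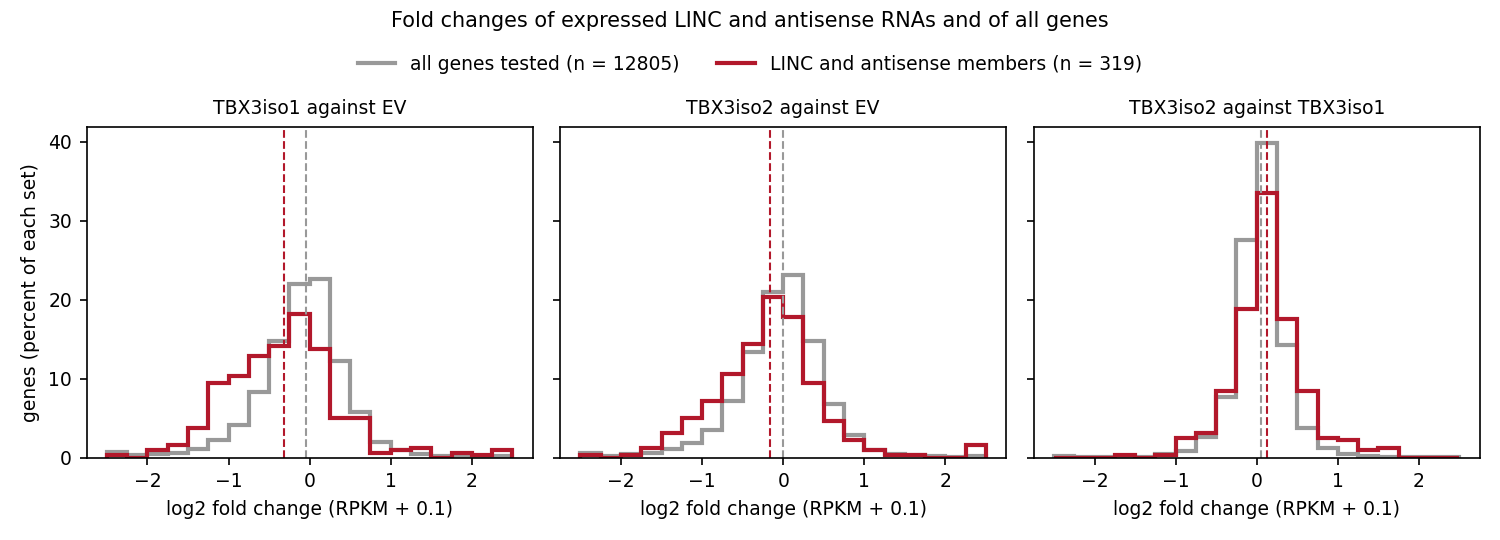
Log2 fold changes on log2(RPKM + 0.1) of the 319 members (red) and of all 12805 genes tested (grey) in the 3 comparisons, as percent of each set per bin, with values beyond the axis placed in the end bins and dashed lines at the medians. The members lie to the left of all genes against EV, with medians of -0.32 and -0.05 for TBX3iso1 and of -0.16 and -0.00 for TBX3iso2, and slightly to the right between the isoforms (0.13 and 0.05).

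The number of calls depended on the scaling and on the EV libraries. Under quantile normalization the split was 37 higher and 69 lower with TBX3iso1 (background 9.92% and 10.2%) and 33 and 48 with TBX3iso2 (10.4% each way). Between the isoforms it was 18 and 12 (background 2.71% and 3.38%), and under median-ratio scaling 17 and 13 (2.69% and 3.49%). Without EV library 1, 73 members were lower with TBX3iso1 and 52 with TBX3iso2, where 11.3% and 10.1% of all genes were lower. Without EV library 2 these counts were 66 and 49, beside 11.5% and 10.2% of all genes. Counting members whose libraries did not overlap those of EV, 60 lay above and 194 below EV with TBX3iso1 and 74 above and 147 below with TBX3iso2, and 78.3% and 74.7% of all genes did not overlap either way. Of the 15 members with an EV mean under 0.5 RPKM, 8 were higher with each isoform, and these entered only through the TBX3 lines. Of the members called lower, 34 had a TBX3iso1 mean and 19 a TBX3iso2 mean under 0.5 RPKM, and these entered through the other lines.

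Among all genes tested, those at a mean of 0.5 to 2 RPKM were called more often in both directions than those above, so the members were also set beside genes of the same level. Among the 201 members with a mean of 0.5 to 2 RPKM, 42.8% were lower with TBX3iso1 and 27.9% with TBX3iso2, and among all 2491 genes at that level 26% and 22.1% were. Higher at this level were 6.47% and 5.97% of the members and 10.7% and 11.2% of all genes. Among the 118 members at 2 RPKM or more the shares were 17.8% and 15.3%, and among all 10314 genes at that level 11.2% and 9.94%, and 8.47% and 9.32% of the members were higher, beside 6.67% and 8.41% of all genes. Of the LINC members 34 of 111 were lower with TBX3iso1 and 26 with TBX3iso2, and of the antisense members 73 of 208 and 48. The 171 genes that the antisense members are named after were lower in 25 cases with TBX3iso1 and in 20 with TBX3iso2, and higher in 11 and 10. These shares of 14.6% and 11.7% lower and of 6.43% and 5.85% higher stand beside the background given above.

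**Figure D2:**
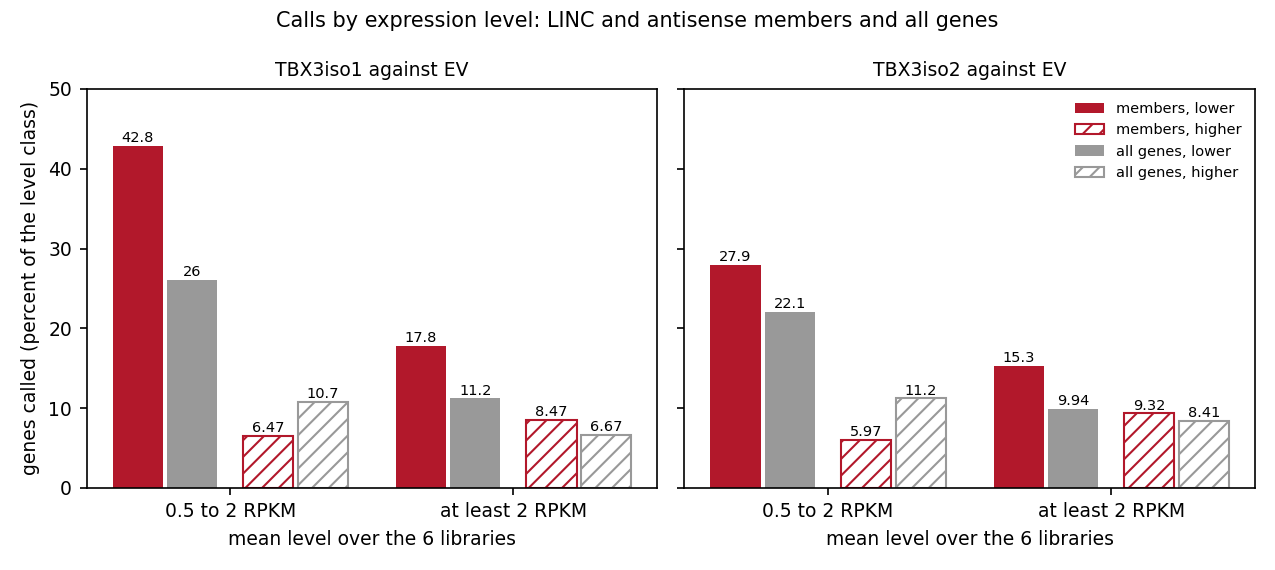
Percent of genes called lower (filled bars) or higher (hatched bars) against EV for members (red) and all genes tested (grey), at a mean of 0.5 to 2 RPKM and of at least 2 RPKM. Members were lower more often than all genes of the same level in each panel, from 42.8% against 26% at the low level with TBX3iso1 to 15.3% against 9.94% at the high level with TBX3iso2, and at the low level they were higher less often (6.47% against 10.7% with TBX3iso1).

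Several of the members that rose most were near or below 0.1 RPKM with EV. *PAX8-AS1* lies across *PAX8*, a transcription factor of thyroid, kidney and Müllerian development (chr2:113968998-114034158, plus strand). Its levels were 0.0391 and 0.0620 RPKM with EV, 5.57 and 5.996 RPKM with TBX3iso1 and 5.34 and 5.72 RPKM with TBX3iso2. All 4 TBX3 libraries were far above EV and those of the isoforms overlapped, with log2 fold changes of 5.29 ± 0.13 and 5.23 ± 0.13. The gene reached the mean only through the TBX3 lines, so no p is given for its rise. *LINC01116*, on the long arm of chromosome 2 near the HOXD cluster (chr2:177476165-177502659, minus strand), was at 0.107 and 0.108 RPKM with EV, 2.99 and 3.10 RPKM with TBX3iso1 and 1.33 and 1.76 RPKM with TBX3iso2. *APCDD1L-AS1* starts 20 bases from *APCDD1L*, a relative of the Wnt inhibitor gene *APCDD1* (chr20:57090435-57194944, plus strand). It was at 0.151 and 0.109 RPKM with EV, 1.32 and 1.59 RPKM with TBX3iso1 and 4.99 and 4.47 RPKM with TBX3iso2. The order of the isoforms was opposite in these genes: *LINC01116* was higher with TBX3iso1 and *APCDD1L-AS1* with TBX3iso2, without overlap.

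*LINC00704*, also called *MANCR* and described as a mitosis-associated transcript of aggressive breast cancer, was at 0.389 and 0.473 RPKM with EV, 1.81 and 1.65 RPKM with TBX3iso1 and 3.77 and 4.33 RPKM with TBX3iso2. *ATP6V1B1-AS1* was at 0.407 and 0.334 RPKM with EV, 1.76 and 2.14 RPKM with TBX3iso1 and 2.50 and 3.20 RPKM with TBX3iso2. Both rose with either isoform, by log2 fold changes of 1.79 and 2.97 for *LINC00704* and 2.12 and 2.64 for *ATP6V1B1-AS1*. *SLCO4A1-AS1*, at the gene of an organic anion transporter, rose from 0.826 and 0.786 RPKM to 2.98 and 3.31 RPKM with TBX3iso1 and 1.42 and 1.75 RPKM with TBX3iso2. *SH3PXD2A-AS1*, at the gene of the invadopodia scaffold TKS5, rose from 1.07 and 0.949 RPKM to 2.53 and 2.50 RPKM with TBX3iso1 and 2.74 and 2.47 RPKM with TBX3iso2, while its sense gene *SH3PXD2A* was at line means of 1.34, 1.34 and 1.39 RPKM. *LINC00857* was at 1.21 and 1.31 RPKM with EV, 1.86 and 1.93 RPKM with TBX3iso1 and 4.22 and 3.85 RPKM with TBX3iso2, a log2 fold change of 0.55 below the threshold with TBX3iso1 and of 1.60 with TBX3iso2. *LINC01127* rose by 1.36 with TBX3iso1 and by 0.86 with TBX3iso2 on the log2 scale, and *USP2-AS1* by 1.13 with TBX3iso2, its value of 0.20 with TBX3iso1 not being called. The call of *LINC01127* with TBX3iso2 was lost without EV library 1 (limma adjusted p = 0.143) and without TBX3iso2 library 1.

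The largest fall was that of *LINC01419*, a LINC gene on chromosome 8, from 1.24 and 1.66 RPKM with EV to 0.0807 and 0.0664 RPKM with TBX3iso1 and 0.0160 and 0.0574 RPKM with TBX3iso2. The log2 fold changes of *LINC01419* were -3.15 ± 0.25 and -3.50 ± 0.25, and none of its TBX3 libraries came near EV. It reached the mean only through the EV line, so no p is given for its fall. *LINC01234* (chr12:114021691-114211531, minus strand), which like *TBX3* lies on chromosome 12, fell from 3.62 and 3.11 RPKM to 1.06 and 1.17 RPKM with TBX3iso1 and 0.909 and 0.849 RPKM with TBX3iso2. *LINC01213* fell from 0.972 and 1.28 RPKM to 0.243 and 0.292 RPKM with TBX3iso1 and 0.281 and 0.288 RPKM with TBX3iso2. Like *LINC01419*, *LINC01213* reached the mean only through the EV line, so its calls are a description only. The drop of these genes was of like size with both isoforms, at -1.51 and -1.82 for *LINC01234* and -1.73 and -1.66 for *LINC01213* on the log2 scale. *CCDC183-AS1* (-1.76 and -1.43), *SLC25A25-AS1* (-1.40 and -1.50) and *NUP50-AS1* (-1.71 and -0.84) were lower with both isoforms too, and *NUP50-AS1* differed between them (0.86, limma adjusted p = 0.00557).

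Other falls rested on more variable libraries. *LINC00313* was at 0.976 and 1.14 RPKM with EV, 0.381 and 0.566 RPKM with TBX3iso1 and 0.294 and 0.251 RPKM with TBX3iso2. This gene reached the mean only through the EV line, so its calls are a description only, and that with TBX3iso1 was lost without EV library 2. *MIF-AS1*, at the gene of the cytokine macrophage migration inhibitory factor, was at 1.40 and 1.47 RPKM with EV, 0.659 and 0.471 RPKM with TBX3iso1 and 0.610 and 0.291 RPKM with TBX3iso2. Its call with TBX3iso1 was lost without either EV library. The sense gene *MIF* was at line means of 813, 633 and 534 RPKM with EV, TBX3iso1 and TBX3iso2, and was called lower with TBX3iso2 (-0.617 on the log2 scale). Exons of this pair share 687 bases, so its reads may not be told apart. *PARD3-AS1*, beside the cell polarity gene *PARD3*, was at 0.671 and 1.36 RPKM with EV, 0.291 and 0.449 RPKM with TBX3iso1 and 0.216 and 0.344 RPKM with TBX3iso2. Both calls were lost without EV library 2, that with TBX3iso1 also without TBX3iso1 library 1. *PARD3-AS1* too reached the mean only through the EV line, so its calls are a description only. *GSTT1-AS1* was at 2.24 and 1.14 RPKM with EV, 0.680 and 1.20 RPKM with TBX3iso1, where the libraries overlapped EV and it was not called, and 0.386 and 0.461 RPKM with TBX3iso2, where it fell by 1.71 on the log2 scale.

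**Figure D3:**
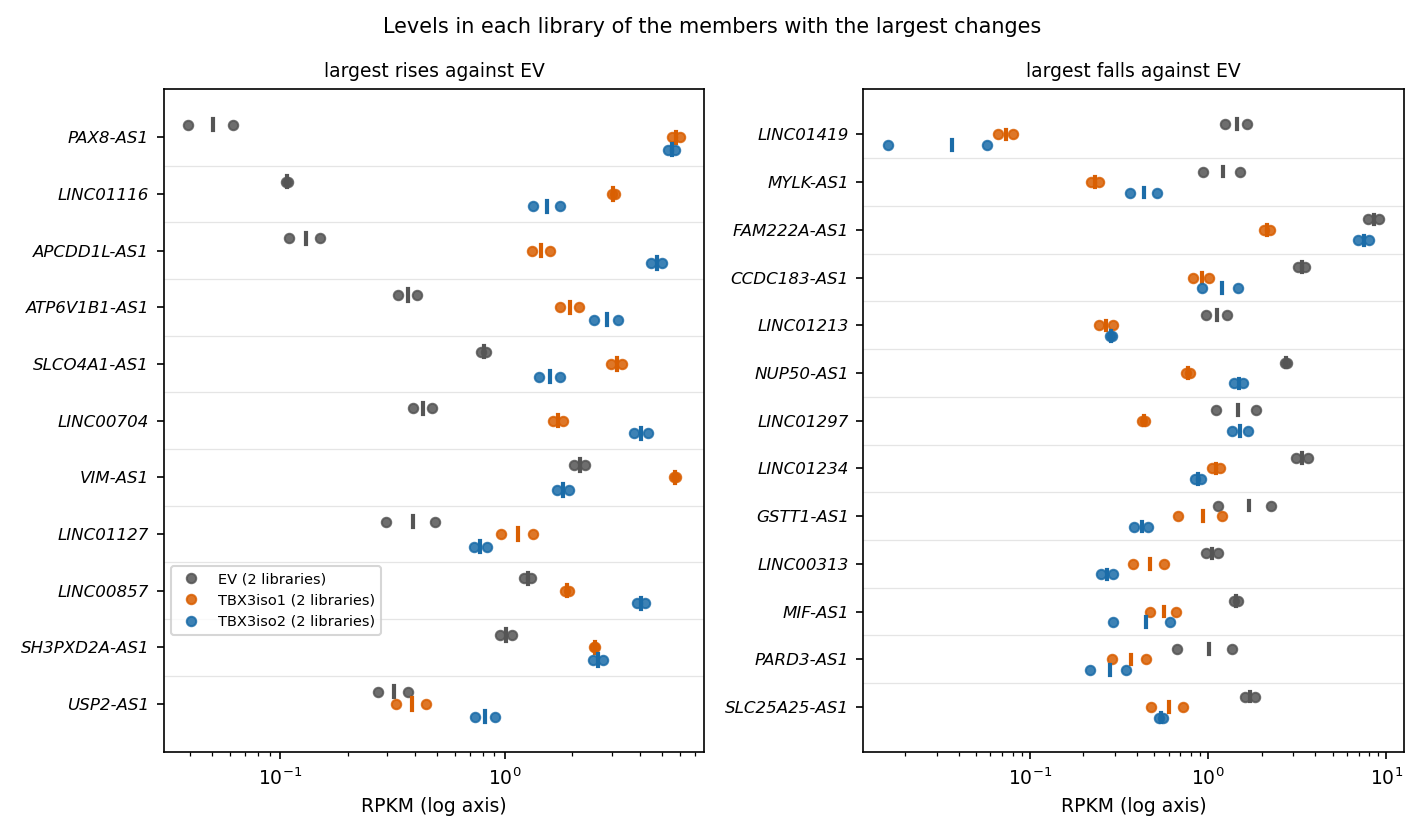
RPKM on a log axis of the members with the largest rises and falls against EV in each library (points, 2 per line) with the mean of each line (bars), grey for EV, orange for TBX3iso1 and blue for TBX3iso2. *PAX8-AS1* goes from under 0.1 RPKM with EV to over 5 RPKM with either isoform, and *LINC01419* from over 1 RPKM to under 0.1 RPKM.

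RefSeq lists 12 of the 319 members as protein-coding, among them several of the most abundant. *LINC00998*, *LINC00493* and *TOPORS-AS1* are listed as genes of small integral membrane proteins (*SMIM30*, *SMIM26* and *SMIM27*), *LINC01420* as *NBDY*, a microprotein of the mRNA decapping complex, and *LINC00116* as *MTLN*, a mitochondrial microprotein. *LINC00116* rose with both isoforms: its line means were 4.21, 8.68 and 8.66 RPKM with EV, TBX3iso1 and TBX3iso2, with log2 fold changes of 1.02 (limma adjusted p = 0.00122) and 1.01 (limma adjusted p = 0.00127). *LINC00998*, *LINC00493*, *LINC01420* and *NCBP2-AS2* were not called in any comparison. *LINC00341*, which RefSeq lists under *SYNE3*, was higher with both isoforms (line means of 0.767, 1.31 and 1.21 RPKM), and *TNRC6C-AS1*, listed under *TMC6*, was lower with both (1.66, 0.850 and 0.619 RPKM). *MMP24-AS1* was lower with TBX3iso2 (line means of 14.3, 9.87 and 8.85 RPKM) and *TOPORS-AS1* with TBX3iso1 (1.15, 0.661 and 1.00 RPKM). The call of *TOPORS-AS1* was lost when any 1 EV or TBX3iso1 library was left out (limma adjusted p up to 0.193), and that of *LINC00341* with TBX3iso2 without either EV library or TBX3iso2 library 2 (limma adjusted p up to 0.0738). Of the 12, TBX3iso1 cells had 3 higher (25%) and 2 lower (16.7%), beside 7.46% and 14.1% of all genes tested. TBX3iso2 cells had 2 higher and 2 lower (16.7% each), beside 8.94% and 12.3%. These members were chosen after their values were seen, so the shares are a description only.

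Of a list of 69 LINC and antisense genes known from the cancer literature, 36 were tested, and TBX3iso1 cells had 3 of them higher (8.33%) and 9 lower (25%), TBX3iso2 cells 4 higher (11.1%) and 7 lower (19.4%). The background over all genes was 7.46% and 14.1% with TBX3iso1 and 8.94% and 12.3% with TBX3iso2. This list and the lists below were written with earlier results of these data known, so their shares are a description only. The medians were -0.21 and -0.11 on the log2 scale, between those of the members and of all genes. Besides *LINC00152* and *LINC01116*, *LINC00941* rose with TBX3iso1, from 2.05 and 2.04 RPKM to 4.49 and 4.76 RPKM, and was at 3.23 and 2.74 RPKM with TBX3iso2. Between the isoforms it differed by -0.62 (limma adjusted p = 0.0129), a call that was lost without TBX3iso1 library 2 and without TBX3iso2 library 2. *LINC00707* rose with TBX3iso2, from 1.89 and 2.12 RPKM to 4.02 and 3.56 RPKM, and was at 2.73 and 2.87 RPKM with TBX3iso1. *LINC01139*, known as LINK-A and described in triple-negative breast cancer, fell from 9.64 and 10.1 RPKM to 4.91 and 4.79 RPKM with TBX3iso1 and 5.74 and 6.09 RPKM with TBX3iso2. These falls of *LINC01139*, -1.01 and -0.73 on the log2 scale, had an SE of 0.084.

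Also on that list, *LINC00857* rose with TBX3iso2, and *LINC01234* and *SLC25A25-AS1* fell with both isoforms, as given above. Its other called members follow, except *ZEB1-AS1*, which is given below. *LINC00472*, described as a tumour suppressor in breast cancer, was at 1.03 and 1.23 RPKM with EV, 0.617 and 0.453 RPKM with TBX3iso1 and 0.743 and 0.546 RPKM with TBX3iso2. It was lower with both isoforms, but each call was lost without EV library 2 (limma adjusted p = 0.0729 with TBX3iso1 and 0.152 with TBX3iso2), and that with TBX3iso2 also without EV library 1 or TBX3iso2 library 2. *LINC01503* fell by 0.73 and 0.76 on the log2 scale, and both calls were lost without EV library 1, that with TBX3iso1 also without TBX3iso1 library 1 (limma adjusted p = 0.0655 and 0.0588). With TBX3iso1, *ITGB2-AS1* (-0.64), *NNT-AS1* (-0.60) and *RHPN1-AS1* (-0.64) were lower, and each of these calls was lost without EV library 1 and without TBX3iso1 library 2 (limma adjusted p up to 0.055, 0.11 and 0.176), those of *NNT-AS1* and *RHPN1-AS1* also without EV library 2. With TBX3iso2, *LINC00963* (-0.66) and *TP73-AS1* (-0.61, under the 1.5-fold limit without EV library 2 or TBX3iso2 library 2) were lower. *CBR3-AS1* was not called against EV but differed between the isoforms (0.60, limma adjusted p = 0.0235), a call lost without any of 5 of the 6 libraries (limma adjusted p up to 0.123).

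Of 16 antisense genes of the HOX clusters, which hold the homeobox genes of body patterning, 7 had a row and 2 reached the mean of 0.5 RPKM. *HOXB-AS1* was at 2.78 and 3.74 RPKM with EV, 1.29 and 1.80 RPKM with TBX3iso1 and 1.62 and 1.93 RPKM with TBX3iso2, and was lower with both isoforms, except without EV library 2 (limma adjusted p = 0.0515 and 0.104). *HOXC-AS3* was at 3.62 and 5.45 RPKM with EV, 1.66 and 3.42 RPKM with TBX3iso1 and 2.25 and 2.05 RPKM with TBX3iso2, and was called lower with TBX3iso2 (-1.02, limma adjusted p = 0.0313, lost without EV library 2 and without TBX3iso2 library 2).

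Of 61 antisense genes of transcription factor genes 15 were tested, of which TBX3iso1 cells had 1 higher and 4 lower (26.7%, background 14.1%) and TBX3iso2 cells 1 higher and 3 lower (20%, background 12.3%). This list too was written with earlier results of these data known. The one that rose was *PAX8-AS1*. *TBX2-AS1* (chr17:59470816-59488916, minus strand), whose start window was shown above, was at 1.25 and 0.673 RPKM with EV, 0.350 and 0.386 RPKM with TBX3iso1 and 0.522 and 0.445 RPKM with TBX3iso2. All TBX3 libraries lay below EV, but without EV library 1 neither call was made, and that with TBX3iso2 was lost without TBX3iso2 library 2 too. *TBX2-AS1* reached the mean only through the EV line, so its calls are a description only. *TBX2* was too low to test, at line means of 0.511, 0.188 and 0.123 RPKM. *TFAP2A-AS1*, at the gene of the AP-2 alpha factor of epithelial and neural crest cells, fell by 0.66 and 0.70 on the log2 scale, and both calls were lost without EV library 2 (limma adjusted p = 0.193 and 0.161), that with TBX3iso1 also without TBX3iso1 library 2. *THAP7-AS1* was lower with TBX3iso1 (-0.67), a call lost without either EV library or TBX3iso1 library 1 (limma adjusted p up to 0.233).

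Of 39 antisense genes of epithelial-mesenchymal transition and matrix genes 8 were tested, with 2 higher and 4 lower in TBX3iso1 cells (25% and 50%, background 7.46% and 14.1%) and 1 higher and 3 lower in TBX3iso2 cells (12.5% and 37.5%, background 8.94% and 12.3%). The list was written with earlier results of these data known, so these shares of 8 genes are a description only. Higher were *APCDD1L-AS1* with both isoforms and *VIM-AS1* with TBX3iso1. *APCDD1L-AS1* was placed on this list by hand, although *APCDD1L* is described above only as a relative of a Wnt inhibitor gene. The only rise with TBX3iso2 thus came from it. Lower were *TGFB2-AS1* and *MMP25-AS1* (-0.94 and -1.03) with both isoforms, *ZEB1-AS1* and *ITGB2-AS1* with TBX3iso1, and *MMP24-AS1* with TBX3iso2. *ZEB1-AS1* starts head to head with *ZEB1*, a repressor of epithelial genes. It was at 4.72 and 4.73 RPKM with EV, 2.49 and 2.55 RPKM with TBX3iso1 and 3.22 and 3.63 RPKM with TBX3iso2, without overlap between any of the lines. On the log2 scale *ZEB1-AS1* differed from EV by -0.88 with TBX3iso1 and by -0.45 with TBX3iso2, the latter below the threshold of 1.5-fold.

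Each antisense member was then set beside the gene it is named after. Of the 208, 200 had a sense row in the table and 171 a sense gene at a mean of at least 0.5 RPKM. GENCODE placed 110 of 195 annotated antisense members head to head with the sense gene (starts at most 1000 bases apart), 82 across it and 3 apart from it, and exons on opposite strands shared bases in 63 of the head-to-head and 68 of the overlapping pairs. The sense gene was the more abundant in 147 of 171 pairs, and over all 171 pairs the median ratio of sense to antisense level was 6.29. Libraries were stranded, but the sources used here do not say whether strand was used in counting, so where exons share bases the reads of an antisense RNA and its sense gene cannot be told apart.

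With TBX3iso1, antisense RNA and sense gene were both called in 23 of 171 pairs: both higher in 6, both lower in 13 and opposite in 4. Only the antisense RNA was called in 50 pairs, only the sense gene in 13 and neither in 85. With TBX3iso2 both were called in 17 pairs (2 both higher, 12 both lower and 3 opposite), only the antisense RNA in 33, only the sense gene in 13 and neither in 108. Most called antisense members thus lacked a called sense gene, but few sense genes were called at all. Among pairs with a called antisense RNA, TBX3iso1 cells had 23 with the sense gene called and 50 without. In the remaining pairs these counts were 13 and 85. For TBX3iso2 cells they were 17 and 33, then 13 and 108. A called sense gene was therefore more frequent beside a called antisense RNA. Exons share bases in 18 (TBX3iso1) and 11 (TBX3iso2) of the pairs with both called, where reads cannot be told apart. The correlation between the log2 fold changes of antisense RNA and sense gene across pairs, which share their libraries, was r = 0.60 with TBX3iso1 and 0.53 with TBX3iso2 in the 111 pairs whose exons share bases, and r = -0.33 and -0.32 in the 55 pairs whose exons do not, a group that holds the *ATP6V1B1* pair. Without that pair, left out after the values were seen, r was 0.23 and 0.35 in the other 54, so the negative sign rested on it. Of the pairs without shared exon bases in which both were called, 4 were both lower and 1 was opposite with each isoform. In the 105 head-to-head pairs r was 0.46 and 0.62. No far pair was left out of the groups with positive r. The *APCDD1L* pair is in both of these groups and the *PAX8* pair in the group that shares bases. Their part in the positive values was not tested.

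**Figure D4:**
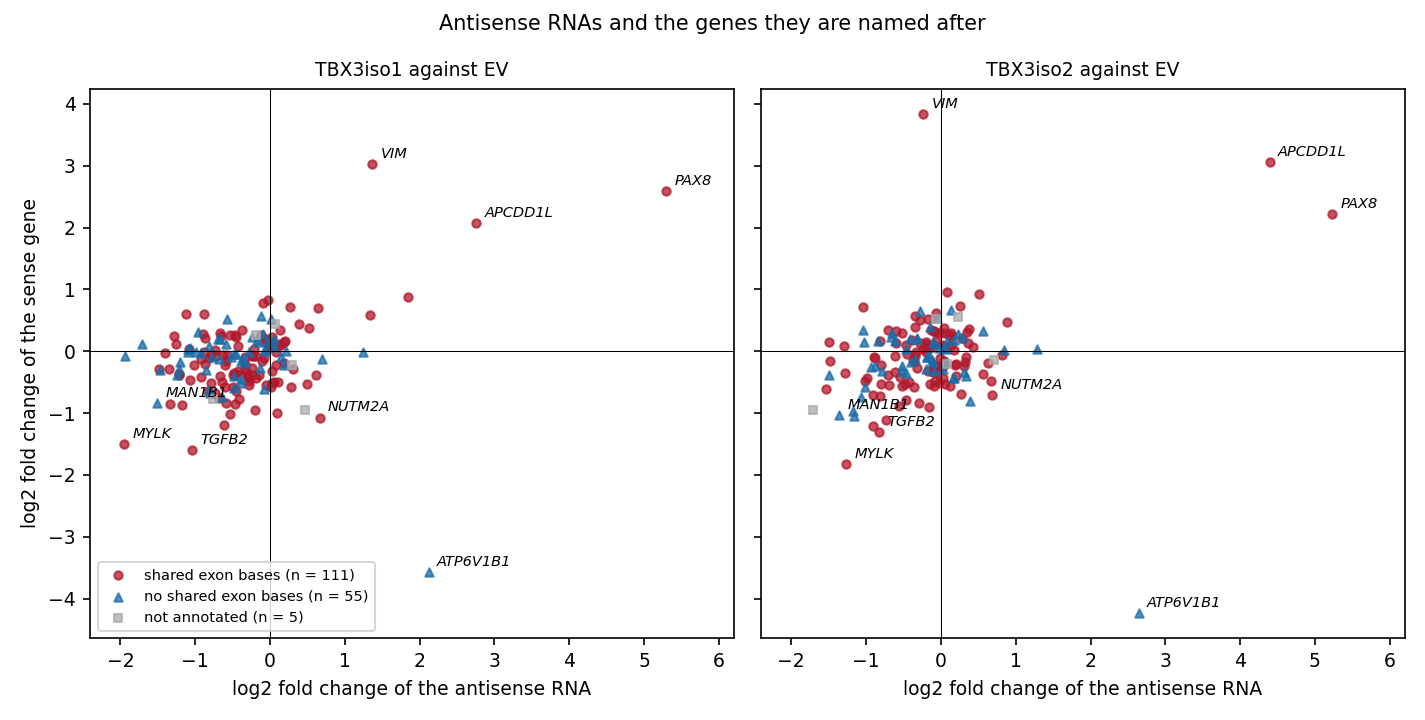
Log2 fold change of the antisense RNA (horizontal) and of the gene it is named after (vertical) for 171 pairs with TBX3iso1 and TBX3iso2 against EV, red circles for pairs whose exons share bases (n = 111), blue triangles for pairs whose exons do not (n = 55) and grey squares for pairs not annotated. *PAX8* and *APCDD1L* lie at the upper right with both isoforms, *ATP6V1B1* at the lower right, and *VIM* moves from the right to the left of the vertical line between the panels.

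In the pairs that rose together the antisense RNA and the sense gene did not always rise alike. *PAX8* was at 0.117 and 0.106 RPKM with EV, 1.14 and 1.19 RPKM with TBX3iso1 and 0.804 and 0.966 RPKM with TBX3iso2, log2 fold changes of 2.58 and 2.21, and its exons share 1651 bases with those of *PAX8-AS1*. In EV cells *PAX8* was the more abundant of the pair, and in both TBX3 lines *PAX8-AS1* was. *APCDD1L* was at 0.440 and 0.514 RPKM with EV, 2.46 and 2.18 RPKM with TBX3iso1 and 5.10 and 4.29 RPKM with TBX3iso2. Like *APCDD1L-AS1*, with which it shares 21 exon bases, it was higher with TBX3iso2 than with TBX3iso1 (0.98, limma adjusted p = 0.00536). *SLCO4A1* was higher with TBX3iso1 (18.2 and 17.6 RPKM with EV, 33.7 and 32.0 RPKM with TBX3iso1 and 25.2 and 24.7 RPKM with TBX3iso2), and its value with TBX3iso2 was 0.48 on the log2 scale, below the threshold. Its exons share 346 bases with those of *SLCO4A1-AS1*.

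*VIM*, the gene of the mesenchymal filament protein vimentin, and *VIM-AS1* parted between the isoforms. *VIM* was at 18.5 and 18.9 RPKM with EV, 147 and 160 RPKM with TBX3iso1 and 260 and 278 RPKM with TBX3iso2. *VIM-AS1* was at 2.28 and 2.03 RPKM with EV, 5.64 and 5.80 RPKM with TBX3iso1 and 1.71 and 1.92 RPKM with TBX3iso2. The sense gene was thus highest in the TBX3iso2 line, in which the antisense RNA was lowest, with no overlap of libraries. Between the isoforms *VIM* was higher by 0.81 (limma adjusted p = 0.00115) on the log2 scale and *VIM-AS1* differed by -1.60 (limma adjusted p = 0.000279). Exons of this pair share 656 bases.

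Of the pairs that fell together, those with the largest changes of both genes are given. *MYLK*, the gene of myosin light chain kinase, was at 2.65 and 2.17 RPKM with EV, 0.832 and 0.736 RPKM with TBX3iso1 and 0.740 and 0.486 RPKM with TBX3iso2. *MYLK-AS1*, whose start window was shown above, was at 0.931 and 1.503 RPKM with EV, 0.245 and 0.220 RPKM with TBX3iso1 and 0.516 and 0.362 RPKM with TBX3iso2. Both were below EV in all TBX3 libraries, with log2 fold changes of -1.50 and -1.83 for *MYLK* and -1.95 and -1.27 for *MYLK-AS1*. Exons of this pair share 612 bases, so its reads may not be told apart. *MYLK-AS1* reached the mean only through the EV line (line means of 1.22, 0.233 and 0.439 RPKM). *TGFB2*, the gene of transforming growth factor beta 2, fell from 39.9 and 41.7 RPKM to 14.3 and 12.6 RPKM with TBX3iso1 and 18.1 and 14.8 RPKM with TBX3iso2. *TGFB2-AS1* fell with it, from 1.75 and 1.96 RPKM to 0.836 and 0.860 RPKM and to 0.786 and 1.25 RPKM. Exons of this pair share 701 bases, and the calls of *TGFB2-AS1* were lost without EV library 2 (limma adjusted p = 0.0521 with TBX3iso1 and 0.0969 with TBX3iso2), that with TBX3iso2 also without EV library 1 or TBX3iso2 library 1.

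*MAN1B1*, the gene of an endoplasmic reticulum mannosidase, and *NIPBL*, the gene of the cohesin loader, start head to head with their antisense RNAs and share no exon bases with them. *MAN1B1-AS1* fell from 5.68 and 5.56 RPKM to 2.05 and 1.78 RPKM with TBX3iso1 and 2.03 and 2.23 RPKM with TBX3iso2, and *MAN1B1* from 52.1 and 52.5 RPKM to 28.5 and 30.1 RPKM and to 24.7 and 26.3 RPKM. *NIPBL-AS1* fell from 2.92 and 3.03 RPKM to 1.66 and 1.64 RPKM with TBX3iso1 and 1.28 and 1.27 RPKM with TBX3iso2, and *NIPBL* from 8.02 and 8.21 RPKM to 5.82 and 4.66 RPKM and to 4.51 and 3.33 RPKM. In both pairs both genes fell by more than 1.5-fold with each isoform, and for *NIPBL* the call with TBX3iso1 was lost without either EV library or TBX3iso1 library 2 (limma adjusted p up to 0.093).

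Pairs that went opposite ways were few. *ATP6V1B1*, the gene of a B subunit of the vacuolar proton pump, fell from 8.72 and 9.36 RPKM with EV to 0.682 and 0.650 RPKM with TBX3iso1 and 0.452 and 0.329 RPKM with TBX3iso2, while *ATP6V1B1-AS1* rose as given above. The log2 fold changes were -3.58 and -4.23 for the sense gene. The antisense RNA lies within the bounds of *ATP6V1B1* on the other strand (chr2:71168947-71175740), 12710 bases between the starts, and shares no exon bases with it. EV cells held more of the sense gene and both TBX3 lines more of the antisense RNA.

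Other opposite pairs changed less. *NUTM2A-AS1* was higher with both isoforms (line means of 3.77, 6.04 and 6.15 RPKM) and *NUTM2A* lower (0.831, 0.344 and 0.468 RPKM), but both belong to a family of near-identical copies on chromosome 10, so reads may be shared between them and the values are uncertain. The calls of *NUTM2A-AS1* were lost without EV library 1 or library 2 of the TBX3 line, and that of *NUTM2A* with TBX3iso2 without either EV library. *NUTM2A* reached the mean only through the EV line, so its calls are a description only. *ZEB1* was higher with TBX3iso1 (1.07 and 1.12 RPKM with EV and 1.84 and 1.57 RPKM with TBX3iso1, 0.60 on the log2 scale), where *ZEB1-AS1* was lower. Exons of *ZEB1* and *ZEB1-AS1* share 396 bases, so the reads of this pair may not be told apart. That call of *ZEB1* was lost without either EV library and without TBX3iso1 library 1 (limma adjusted p up to 0.143), and with TBX3iso2 it was at 1.26 and 0.881 RPKM.

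Between the isoforms, several of the members with the largest differences lay near EV in one line and apart from it in the other. *FAM222A-AS1* was at 9.14 and 7.93 RPKM with EV, 2.06 and 2.24 RPKM with TBX3iso1 and 6.92 and 7.99 RPKM with TBX3iso2. It was lower with TBX3iso1 only, and the difference between the isoforms was itself called (1.75 ± 0.12, limma adjusted p = 0.000199), while its sense gene *FAM222A* was at line means of 4.13, 3.88 and 3.86 RPKM. *ST3GAL4-AS1*, which RefSeq lists as *GSEC*, was at 1.62 and 1.64 RPKM with EV, 0.684 and 0.603 RPKM with TBX3iso1 and 1.75 and 2.51 RPKM with TBX3iso2 (a difference of 1.56, limma adjusted p = 0.0022). *LINC01297* (1.86 and 1.10, 0.428 and 0.441, and 1.36 and 1.68 RPKM with EV, TBX3iso1 and TBX3iso2) and *LINC01589* (1.14 and 1.65, 0.341 and 0.615, and 1.10 and 1.87 RPKM) were low with TBX3iso1 in the same way, and the difference of *LINC01589* was lost without EV library 2 or TBX3iso1 library 1 (limma adjusted p up to 0.073), and its call with TBX3iso1 without EV library 2.

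Fewer members were lower with TBX3iso2 than with TBX3iso1. Beside *VIM-AS1*, *RASSF8-AS1*, at a gene of the RAS association domain family, was at 0.897 and 0.793 RPKM with EV, 1.47 and 1.28 RPKM with TBX3iso1 and 0.673 and 0.455 RPKM with TBX3iso2. *UCKL1-AS1* was at 0.582 and 0.425 RPKM with EV, 1.57 and 1.26 RPKM with TBX3iso1 and 0.797 and 0.569 RPKM with TBX3iso2. *LINC00176*, which RefSeq lists as the coding gene *C20orf204*, was at 0.424 and 0.394 RPKM with EV, 0.869 and 0.641 RPKM with TBX3iso1 and 0.289 and 0.393 RPKM with TBX3iso2. All 3 were highest with TBX3iso1, with differences between the isoforms of -1.17, -0.96 and -0.95. *LINC00176* reached the mean of 0.5 RPKM only through the TBX3iso1 line, so its calls are a description only. The rise over EV of *RASSF8-AS1* was lost when any 1 EV or TBX3iso1 library was left out (limma adjusted p up to 0.163), and that of *LINC00176* without either EV library or TBX3iso1 library 1 (limma adjusted p up to 0.138). The called differences between the isoforms of *UCKL1-AS1* and *LINC00176* were lost without EV library 1 and without TBX3iso1 library 1. That of *UCKL1-AS1* was also lost without TBX3iso2 library 2 (-1.174 to -0.751 without each library in turn). That of *LINC00176* was also lost without EV library 2 or TBX3iso2 library 1 (-1.145 to -0.759). The difference of *USP2-AS1*, higher by 0.93 with TBX3iso2, was lost without either EV library, TBX3iso1 library 2 or TBX3iso2 library 2 (0.75 to 1.101). The differences of *LINC01116* (-0.95, lost without TBX3iso1 library 2 at a limma adjusted p of 0.0529) and *SLCO4A1-AS1* (-0.95) were between lines that were both above EV.

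**Figure D5:**
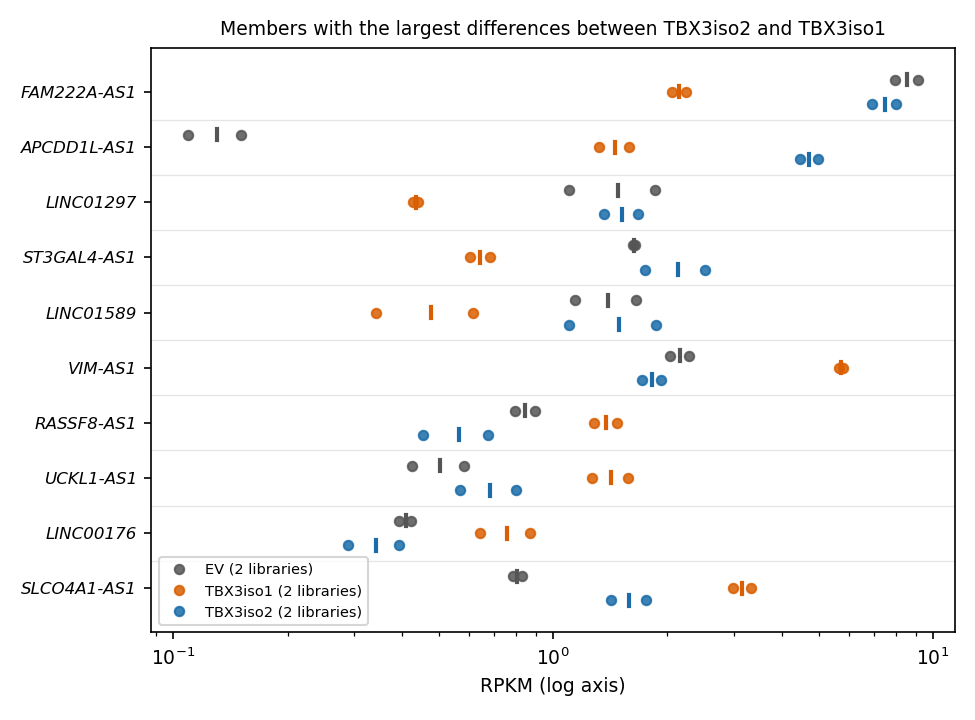
RPKM on a log axis in each library (points, 2 per line) and the mean of each line (bars) for the members with the largest differences between TBX3iso2 and TBX3iso1, grey for EV, orange for TBX3iso1 and blue for TBX3iso2. *FAM222A-AS1*, *LINC01297*, *ST3GAL4-AS1* and *LINC01589* are lowest with TBX3iso1, and *VIM-AS1*, *RASSF8-AS1*, *UCKL1-AS1* and *LINC00176* are highest with TBX3iso1.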

How the data were processed

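RNA-Seq was read from a table of 6 libraries, 2 for each of 21NT + EV, 21NT + TBX3iso1 and 21NT + TBX3iso2. The authors aligned paired-end reads to hg19 with TopHat and computed the deposited RPKM values in Partek, and the table also gives the alignments of each library (43176600 to 54512400). The gene annotation, the software versions and the use of strand in counting are not given in the sources used here. Genes whose mean reached 0.5 RPKM were tested on log2(RPKM + 0.1) with limma 3.58.1 in R 4.3.3 (1 mean per line, trend), with Benjamini-Hochberg adjustment over 12805 genes, and called where the adjusted p was below 0.05 and the change more than 1.5-fold. A fold on this scale understates the change of low genes. Libraries were selected by polyadenylation, so transcripts without a poly(A) tail are under-recovered, and the precision of a single gene rests on the spread of 2 libraries per line. Per-gene counts are not in the table, so no counting interval was computed. The model was tested on simulated data. Positions and exons came from GENCODE release 44 on GRCh37 and current symbols from RefSeq (Python 3.11.15, pandas 2.3.3).

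Named genes are the 10 highest members, the 8 largest called rises and falls per isoform and the 5 each way between isoforms without overlapping libraries, up to 5 antisense-sense pairs called in each relation, called members of 4 hand-written lists and the protein-coding members, the last chosen after their values were seen. 1 of these pairs is not reported here. The members and lists were chosen with earlier results of these data known.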

Additional observations from a re-analysis of the deposited data

Results flagged for a closer look

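For 7 members the TBX3iso1 and TBX3iso2 lines lay on opposite sides of EV and the difference between the isoforms was itself called (limma, adjusted over all genes tested). Higher with TBX3iso2 than with TBX3iso1 on the log2 scale were *LINC01297* by 1.59, *ST3GAL4-AS1* by 1.56, *LINC01589* by 1.45 and *CBR3-AS1* by 0.605. Lower with TBX3iso2 were *VIM-AS1* at -1.605, *RASSF8-AS1* at -1.167 and *LINC00176* at -0.952. *LINC00176* passed the filter only through the TBX3iso1 line (line means of 0.409, 0.755 and 0.341 RPKM with EV, TBX3iso1 and TBX3iso2). Its call is therefore a description only. The effect on the smaller side was in no case called: against EV it was 0.07 for *LINC01297*, 0.34 for *ST3GAL4-AS1* and 0.06 for *LINC01589* with TBX3iso2, -0.10 for *CBR3-AS1* with TBX3iso1, and -0.23 for *VIM-AS1*, -0.53 for *RASSF8-AS1* and -0.21 for *LINC00176* with TBX3iso2. With 2 libraries per line no single library could be tested as an outlier.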

How the results depend on the processing

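Counts of members called are given as higher and lower, for TBX3iso1 against EV, TBX3iso2 against EV and TBX3iso2 against TBX3iso1. With 1 RPKM added they were 14 and 45, 12 and 35, and 11 and 5. All genes tested then had 5.11% and 9.04%, 6.12% and 8.48%, and 1.62% and 1.66%. With 0.01 RPKM added the members had 25 and 107, 25 and 74, and 24 and 11. All genes had 7.69% and 14.4%, 9.3% and 12.7%, and 3.67% and 2.96%. At a mean of 2 RPKM, which leaves 118 members, the member counts were 10 and 22, 11 and 18, and 5 and 3. All genes at that mean had 6.68% and 11.2%, 8.42% and 9.95%, and 2.65% and 2.24%. Without moderation the member counts were 13 and 49, 15 and 35, and 6 and 1. All genes then had 5.36% and 9.4%, 6.67% and 8.66%, and 0.804% and 0.75%. Under quantile normalization the members had 37 and 69 for TBX3iso1, 33 and 48 for TBX3iso2 and 18 and 12 between the isoforms. All genes had 9.92% and 10.2%, 10.4% each way, and 2.71% and 3.38%. With no filter, where all 20824 genes were tested, 14 and 5 members were called between the isoforms, beside 1.87% and 1.81%. The median log2 fold change of members with TBX3iso1 was -0.198 with 1 RPKM added, -0.129 at 2 RPKM and -0.145 under quantile normalization, and with TBX3iso2 it was -0.015 under quantile normalization. The cause was not tested except where fewer genes were tested. Leaving out 1 library in turn gave 17 to 24 and 66 to 112, 21 to 31 and 49 to 78, and 15 to 32 and 6 to 13, the lone library being assumed to vary like the other lines. Of 133 calls of the genes chosen for naming, 62 held in every alternative and 88 without each library in turn, and none changed direction without a library.

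Effects that were not called and changed sign were *NCBP2-AS2* with TBX3iso1 (0.013 under median-ratio scaling, 0.065 and -0.146 without TBX3iso1 library 1 and 2) and with TBX3iso2 (-0.002 under quantile normalization, 0.230 and -0.105 without TBX3iso2 library 1 and 2), *CBR3-AS1* with TBX3iso1 (0.103, quantile), *LINC00493* with TBX3iso2 (-0.037, quantile), *LINC01589* with TBX3iso2 (-0.184 without EV library 1, 0.420 and -0.294 without TBX3iso2 library 1 and 2) and *LINC01297* with TBX3iso2 (0.421 and -0.282 without EV library 1 and 2, -0.071 without TBX3iso2 library 2). The correlation over antisense and sense pairs without shared exon bases turned positive, to 0.23 and 0.35, without the *ATP6V1B1* pair, an alternative chosen after seeing the data. No pair was left out of the other groups of pairs. The libraries share replicate numbers only. Deviations of same-numbered libraries correlated at r = 0.22, 0.114 and 0.499 across genes. With the number as a replicate block the member counts were 24 and 112, 24 and 79, and 29 and 10. All genes then had 7.64% and 14.5%, 9.1% and 12.7%, and 3.88% and 3.15%. The number of libraries limits every call here.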

Other observations

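Other long noncoding RNAs, whose symbols do not follow the LINC or antisense pattern, are given for comparison from a list of 60, of which 37 were tested. TBX3iso1 cells had 8 of these higher (21.6%) and 13 lower (35.1%), TBX3iso2 cells 3 higher (8.11%) and 14 lower (37.8%), beside 7.46% and 14.1% and 8.94% and 12.3% of all genes tested. This list too was written with earlier results of these data known, so its shares are a description only. *H19*, an imprinted transcript of fetal tissue, had line means of 66.5, 9.60 and 14.8 RPKM in EV, TBX3iso1 and TBX3iso2 cells. *MIR205HG*, the host gene of the epithelial microRNA miR-205, had 57.1, 15.9 and 29.2 RPKM. The nuclear RNAs *MALAT1* (17.3, 5.59 and 6.56 RPKM) and *NEAT1* (22.3, 7.95 and 7.85 RPKM) were lower with both isoforms, as were *PCAT6* (7.95, 3.42 and 2.40 RPKM), *TINCR* (1.96, 0.589 and 0.595 RPKM) and *CCAT1* (25.9, 15.7 and 15.0 RPKM). The small nucleolar RNA host genes *SNHG1* (62.0, 98.1 and 96.9 RPKM) and *SNHG15* (21.2, 39.5 and 43.5 RPKM) were higher with both isoforms, and *SNHG5* (56.3, 89.8 and 72.0 RPKM), *SNHG3* (9.68, 15.9 and 13.5 RPKM) and *SNHG12* (9.31, 14.5 and 11.5 RPKM) with TBX3iso1. *UCA1* was higher with TBX3iso1 and lower with TBX3iso2 (3.45, 5.51 and 2.10 RPKM).

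Among the 858 LINC and antisense rows under the mean of 0.5 RPKM, 47 reached it in at least 1 line. *HAS2-AS1*, at the gene of hyaluronan synthase 2, was at 0.376 and 0.301 RPKM with EV, 0.814 and 0.827 RPKM with TBX3iso1 and 0.266 and 0.355 RPKM with TBX3iso2. It was picked after its values were seen and was not tested.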
